A study of Mus musculus with 5 samples.

Results

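The genes described here are the replication-dependent histone genes of the mouse, taken as the protein-coding genes whose symbol starts with Hist1h, Hist2h, Hist3h or Hist4h in the DamID peak tables of SOX7, FLI1 or ERG. There were 35 of them among 9776 protein-coding genes listed in any of the 3 tables, with 20 in the SOX7 table, 22 in the FLI1 table and 6 in the ERG table. In DamID a factor carries the bacterial enzyme Dam, so that the adenines of GATC sites close to where the factor binds become methylated and can be found by sequencing. The cells were endothelial precursors grown from embryonic stem cells: FLK1+ cells were taken from embryoid bodies at day 3, kept for 1 day in blast medium and sorted as cKIT+ TIE2+. The study had 1 library each from the cell lines iSox7::Dam, IFli1::Dam and iErg::Dam, and 2 Dam-only libraries from the line iDam, 1 for SOX7 and 1 for both FLI1 and ERG; all of these lines derive from Ainv18. Each factor was thus measured in 1 line and 1 library, so lines and factors cannot be told apart, and without replicates no test between factors was made. The Dam-only libraries enter only through the authors' peak calls, and their signal at histone genes was not analysed here. Peak tables measure no expression, so the labelled cell type could not be checked against its markers.

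Replication-dependent histone genes supply the H2A, H2B, H3 and H4 proteins of the nucleosome core and the linker histone H1 while DNA is copied. They lie in clusters, often as divergent H2A and H2B gene neighbours, have no introns, and their mRNAs end in a stem-loop in place of a poly(A) tail. NPAT drives their transcription in S phase, and the stem-loop binding protein SLBP acts in the processing of their mRNA. SOX7 belongs to the SOX family of transcription factors and acts in blood and vessel formation, as do the ETS family members FLI1 and ERG.

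SOX7 and FLI1 each listed a minority of the histone gene family, and ERG listed 6 genes. The FLI1 genes and the ERG genes each came from all 4 clusters, and the SOX7 genes from Hist1 and Hist2 only. RefSeq names 67 protein-coding histone genes of these clusters by current or older symbol, and all 35 listed genes were among them. SOX7 listed 29.9% of the 67 (exact binomial interval 19.3 to 42.3), against 23% of all RefSeq protein-coding genes. FLI1 listed 32.8% (21.8 to 45.4), against 35.3% of all. ERG listed 8.96% (3.36 to 18.5), against 5.75% of all. All 3 of these intervals hold the share of all genes. No histone gene was in all 3 tables. SOX7 and FLI1 had 9 in common, which is 45.0% of the SOX7 members and 40.9% of the FLI1 members, against 71.9% of the SOX7 and 46.4% of the FLI1 protein-coding genes. FLI1 and ERG had 4 in common, 18.2% of the FLI1 members and 66.7% of the ERG members, against 13.2% of the FLI1 and 81.0% of the ERG protein-coding genes. SOX7 and ERG had 0 in common, while they share 15.7% of the SOX7 and 62.3% of the ERG protein-coding genes. FLI1 and ERG were called against the same Dam-only library. Of the members, 19 of 20 for SOX7, 21 of 22 for FLI1 and 6 of 6 for ERG had 1 peak. Of the other protein-coding genes, 66.0%, 60.4% and 91.1% had 1 peak in these tables. A gene with several peaks has more ways to be in 2 tables, so the shares in common are not like for like. The effect of peak number on them was not tested.

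Every class had a listed member, but not in every table. SOX7 listed 4 of 18 H2A genes, 7 of 18 H2B genes, 4 of 12 H3 genes, 5 of 13 H4 genes and 0 of 6 H1 genes, and the exact interval of 0 of 6 allows a share of up to 45.9%. FLI1 listed 6 H2A, 7 H2B, 3 H3, 5 H4 and 1 H1 gene. ERG listed 2 H2A, 2 H2B, 1 H4 and 1 H1 gene and 0 of 12 H3 genes, which allows up to 26.5%. By cluster, the large Hist1 cluster of chromosome 13 gave 18 of its 54 genes to SOX7, 15 to FLI1 and 3 to ERG. Hist2 on chromosome 3 gave 2, 5 and 1 of 10 genes to SOX7, FLI1 and ERG. Of the 5 FLI1 genes, Hist2h2ab, Hist2h2ac and Hist2h2be shared a peak and Hist2h2bb and Hist2h3b shared another. The exact interval of 5 of 10 is 18.7 to 81.3%. Hist3h2a on chromosome 11 and Hist4h4 on chromosome 6 were listed by FLI1 and by ERG and not by SOX7. Of all RefSeq protein-coding genes, SOX7 listed 23%, FLI1 35.3% and ERG 5.75%. The exact interval of each class and each cluster holds this share. The 32 genes in no table comprised 4 H1, 9 H2A, 7 H2B, 7 H3 and 5 H4 genes. Among them were Hist1h1t, Hist1h2ba and Hist1h2aa, which encode histones known from the testis. Of these 32 genes, 25 lay next to a listed gene in RefSeq order of histone genes, 19 with a listed gene on 1 side and 6 with one on both sides. With 35 of the 67 genes listed, many would have a listed neighbour whatever their own listing. No such count is given for the listed genes, so the 25 do not set the unlisted genes apart.

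**Figure D1:**
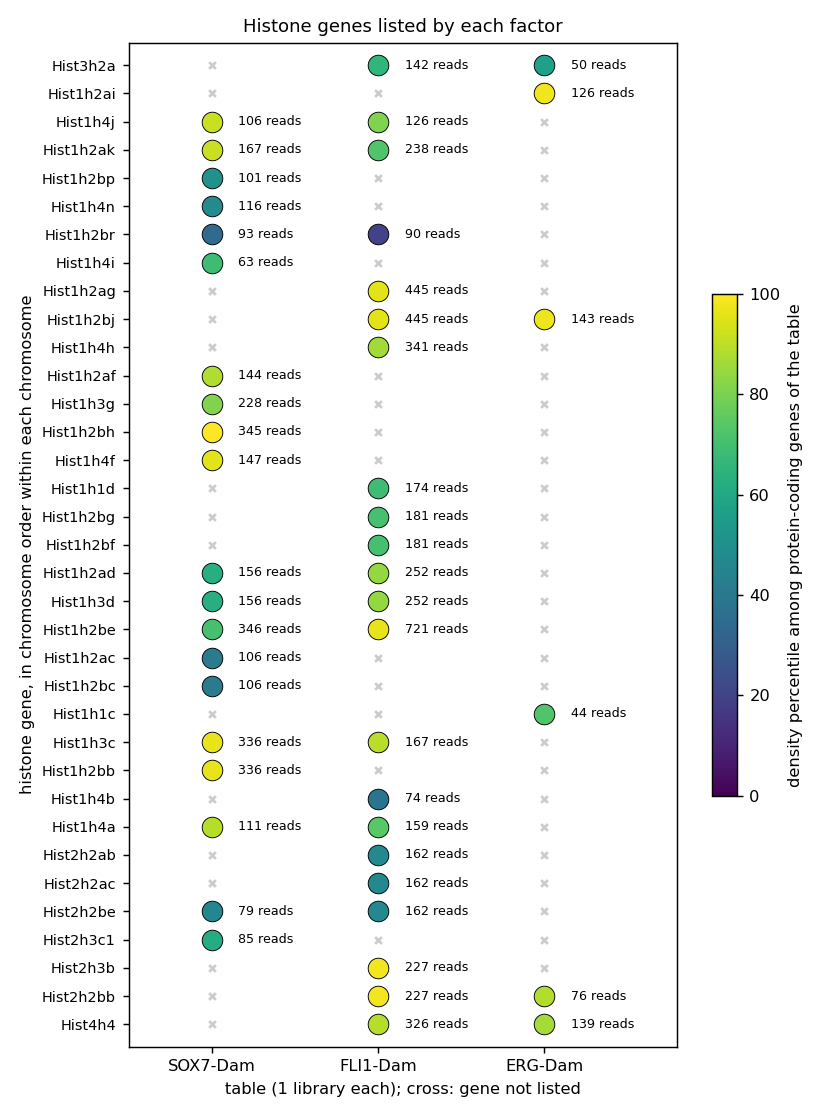
Histone genes listed in the SOX7, FLI1 and ERG tables, 1 library each, with the reads in their peaks as text and the density percentile among the protein-coding genes of the table as colour. Crosses mark genes that are not listed; no row is filled in all 3 columns, 9 rows are filled for SOX7 and FLI1 and 4 for FLI1 and ERG.

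The level each table gives is the read density, the reads in a gene's peaks per kb of peak. It is not scaled to library depth or to the control, so it was ranked within a table among protein-coding genes, with percentile 100 for the densest. SOX7 histone genes had a median of 63.8 reads per kb, against 48.9 for the other protein-coding genes, and a median percentile of 69.7 (range 34.3 to 99.9). FLI1 histone genes had a median of 99.2 reads per kb, against 69.5, and a median percentile of 77.4 (19.9 to 98.2). ERG histone genes had a median of 77.5 reads per kb, against 31.2, and a median percentile of 87.5 (56.6 to 97.8). The members above the middle of their table were 15 of 20 for SOX7, 17 of 22 for FLI1 and 6 of 6 for ERG. As shares of the 67 genes these are 22.4%, 25.4% and 8.96%, against 11.5%, 17.7% and 2.86% of all RefSeq protein-coding genes that stood in the denser 50% of the SOX7, FLI1 and ERG tables. Ranked by summed reads instead of density, the FLI1 median percentile was 51.0. Listed genes sharing a peak share its reads, and the members stood for 17 distinct sets of peaks in SOX7, 16 in FLI1 and 6 in ERG. Histone coding sequences are near copies of each other, and the sources used here do not say how reads that match several copies were placed, so values of single members are uncertain.

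**Figure D2:**
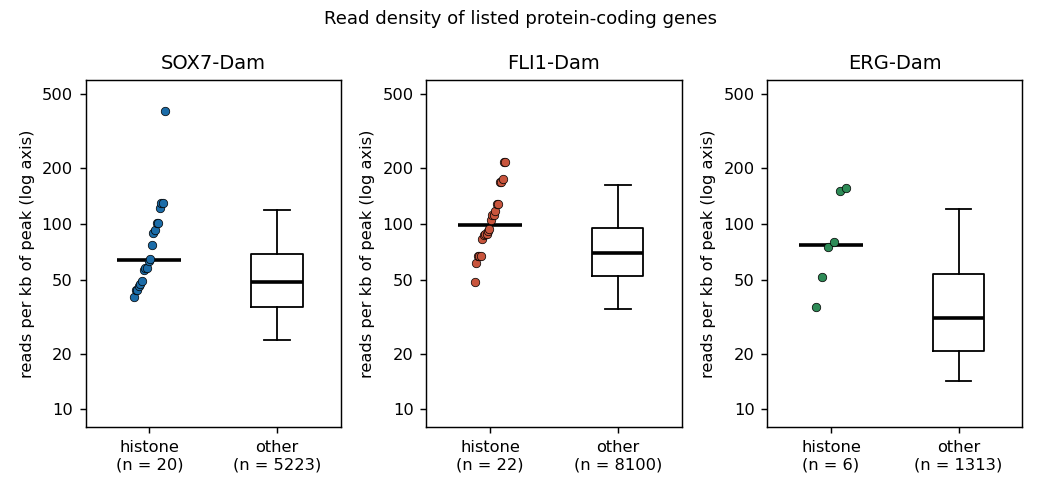
Read density in reads per kb of peak (log axis) of listed histone genes (points, 1 per gene; line, median) and of the other listed protein-coding genes (box, quartiles and median; whiskers, 5th to 95th percentile) in each table. The median of histone genes lies above that of the other genes in each table, at 63.8 against 48.9 for SOX7, 99.2 against 69.5 for FLI1 and 77.5 against 31.2 for ERG.

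Linker histones, which bind the DNA between nucleosomes, were listed once by FLI1 and once by ERG. Hist1h1d had 174 FLI1 reads at 87.0 reads per kb (Poisson interval 74.5 to 101), percentile 69.1, in chr13:23646842-23648842. Hist1h1c had 44 ERG reads at 51.7 reads per kb (37.6 to 69.4), percentile 72.6, in chr13:23831469-23832319. The other 4 linker genes, the testis gene included, were in no table. The Hist1h1d peak lay 3588 bp from the nearest SOX7 peak, that of Hist1h4f. The Hist1h1c peak lay 3422 bp from the nearest FLI1 peak, that of Hist1h3c.

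The densest members included H2B and H2A genes in each table; these 2 proteins enter the nucleosome as a dimer. Hist1h2bh, an H2B gene, had 345 SOX7 reads at 405 reads per kb (364 to 451) in a peak of 851 bp at chr13:23634053-23634903. This was rank 4 of 5243 protein-coding genes and 8.28 times the list median, and it was the only member of any table in the top 1%. The nearest FLI1 peak lay 8410 bp away and the nearest ERG peak 14633 bp away. Hist1h2bb had 336 SOX7 reads at 129 reads per kb, percentile 96.2, under a peak shared with the H3 gene Hist1h3c. Among H2A genes Hist1h2ak stood highest for SOX7, at 101 reads per kb and percentile 91.7. The leading H2A and H2B genes of FLI1 and ERG were others. In the FLI1 table Hist2h2bb stood first with 227 reads at 216 reads per kb (189 to 246), rank 144 of 8122, sharing its peak with the H3 gene Hist2h3b. Hist1h2be came next with 721 reads in 2 peaks at 176 reads per kb (163 to 189), percentile 96.4, and it had 346 SOX7 reads in 4 peaks at 64.6 reads per kb, percentile 70.5. Hist1h2ag and Hist1h2bj shared a FLI1 peak of 445 reads at 168 reads per kb (153 to 184), percentile 95.5, and the intervals of these 2 FLI1 densities overlap. Hist1h2bj was thus high in both tables that listed it. In the ERG table Hist1h2ai had 126 reads at 157 reads per kb (131 to 187), rank 29 of 1319, and Hist1h2bj had 143 reads at 150.4 reads per kb (127 to 177), rank 34. Hist2h2bb stood at percentile 88.3 with 76 ERG reads and 79.9 reads per kb. The intervals of the 2 leading ERG genes overlap, so their order is not resolved.

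H2A and H2B genes were also among the least dense members. Hist1h2br was lowest in both tables that listed it, with 93 SOX7 reads at 40.4 reads per kb (percentile 34.3) and 90 FLI1 reads at 48.6 reads per kb (percentile 19.9). Hist1h2ac and Hist1h2bc shared a SOX7 peak of 106 reads at 44.2 reads per kb, percentile 41.2. Hist2h2ab, Hist2h2ac and Hist2h2be shared a FLI1 peak of 162 reads at 67.5 reads per kb, percentile 47.2, which the table also assigns to Bola1 and Gm15444. Hist3h2a was the lowest ERG member with 50 reads at 35.7 reads per kb, percentile 56.6, and had 142 FLI1 reads at 83.5 reads per kb, percentile 65.6, under peaks also assigned to Hist3h2bb-ps and Trim17. Genes that share a peak hold 1 value between them.

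H3 and H4, which form the central tetramer of the nucleosome, also had members of high density for SOX7 and FLI1. Hist1h3c, an H3 gene, was at percentile 96.2 of the SOX7 table with 336 reads and at 89.1 of the FLI1 table with 167 reads at 128 reads per kb. Hist1h3d shared its SOX7 peak and its FLI1 peak with the H2A gene Hist1h2ad, with 156 SOX7 reads at percentile 62.8 and 252 FLI1 reads at percentile 84.0. Hist1h3g had 228 SOX7 reads at 77.3 reads per kb, percentile 80.9. Hist2h3b stood at percentile 98.2 of FLI1 and Hist2h3c1 at 61.4 of SOX7. Ranked by reads per kb, all of the listed H3 genes thus stood above the middle of their table. Ranked by summed reads, Hist1h3c was at percentile 47.4 of FLI1 and Hist2h3c1 at 43.8 of SOX7, while the other H3 values stayed above the middle. Hist1h3c shared its SOX7 peak with the H2B gene Hist1h2bb, and Hist2h3b its FLI1 peak with the H2B gene Hist2h2bb. Values of shared peaks do not belong to H3 genes alone. Among H4 genes, Hist1h4f had 147 SOX7 reads at 122 reads per kb (103 to 144), percentile 95.4. Hist1h4j stood at percentile 91.6 of SOX7 with 106 reads and 80.8 of FLI1 with 126 reads, and Hist1h4a at 88.9 of SOX7 with 111 reads and 74.1 of FLI1 with 159 reads. Hist1h4b, at percentile 38.4 with 74 FLI1 reads, had the second lowest density of the FLI1 members. Hist4h4, which lies alone on chromosome 6, had 326 FLI1 reads at 128 reads per kb (114 to 142), percentile 89.0, and 139 ERG reads at 75.1 reads per kb (63.1 to 88.7), percentile 86.6.

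The listed genes were served by 20 SOX7 peaks, 17 FLI1 peaks and 6 ERG peaks, or 0.199%, 0.101% and 0.378% of each table's peaks. Their median width was 1626 bp for SOX7, 2001 bp for FLI1 and 951 bp for ERG, against 1451, 1651 and 951 bp over all peaks of these tables. Several histone genes met under 1 peak at 3 SOX7 and 5 FLI1 peaks and at 0 ERG peaks, and 1 SOX7, 5 FLI1 and 2 ERG peaks were also assigned to entries other than the 35 genes. Joined where they overlap, with the peaks of any gene that touch them, they formed 29 regions, of which 23 lay on chromosome 13 over 2045 kb. Regions there fell into 3 blocks, set apart by gaps of over 100 kb. The first, chr13:21808619-21950292, held 5 SOX7, 3 FLI1 and 1 ERG histone peaks. The second, chr13:22133253-22135969, held 1 peak of each factor, and the third, chr13:23622742-23853192, held 12 SOX7, 9 FLI1 and 1 ERG peak. All positions of peaks are on mm9, and whether a peak lies over an exon or between genes was not analysed here, because no gene models of that build were used.

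**Figure D3:**
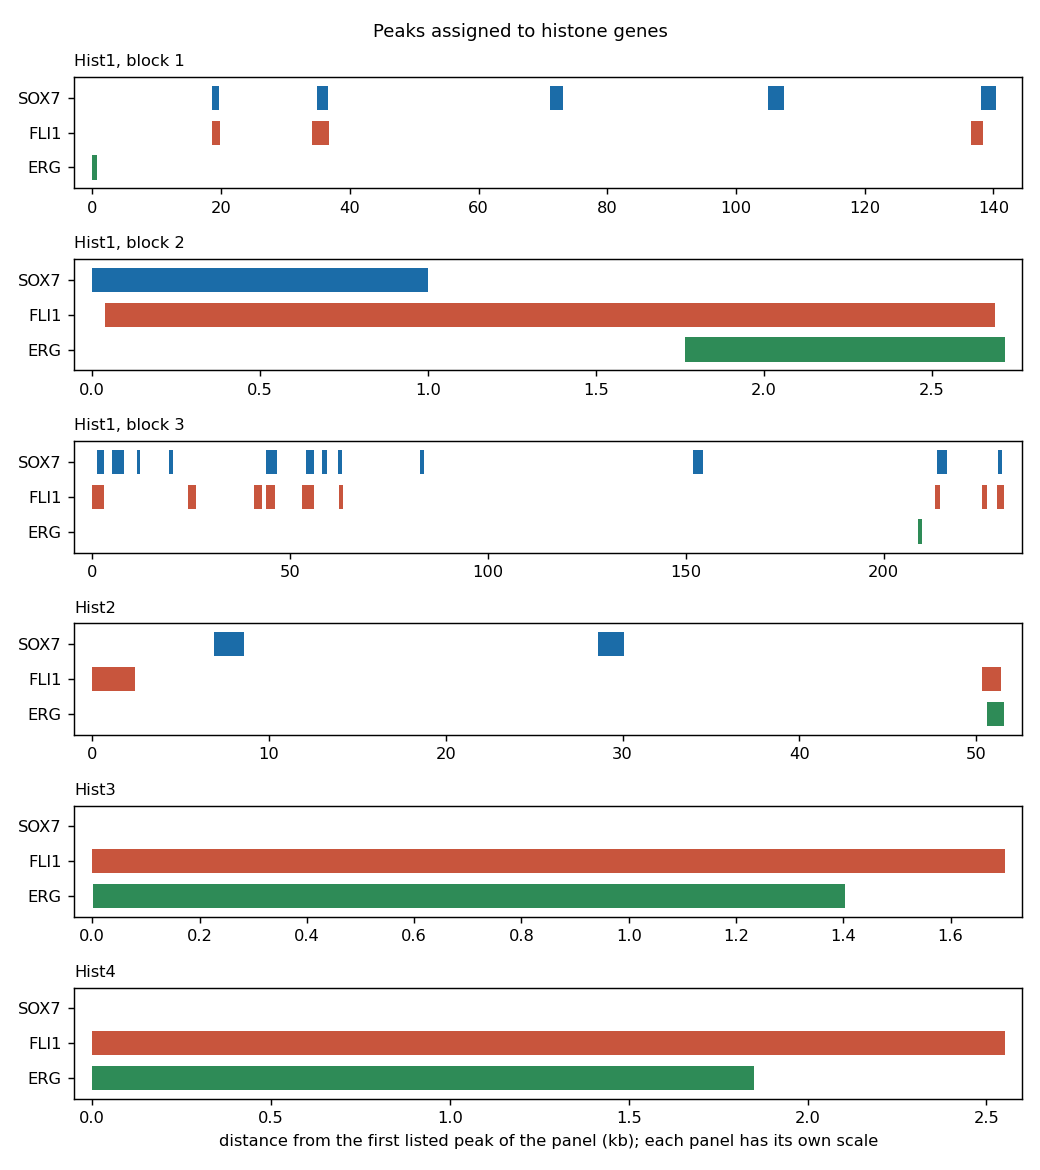
Peaks assigned to histone genes, drawn to scale as distance in kb from the first listed peak of each panel, with SOX7 above FLI1 and ERG. In the second block of Hist1 the FLI1 peak meets the SOX7 peak at one end and the ERG peak at the other, while the SOX7 and ERG peaks lie 765 bp apart.

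Histone peaks of SOX7 met those of FLI1 at 10 places and met no ERG peak. Counting any shared base, 10 of the 20 SOX7 histone peaks (50.0%, 27.2 to 72.8) met a FLI1 peak, against 35.2% of all SOX7 peaks. Of the FLI1 histone peaks 10 of 17 (58.8%, 32.9 to 81.6) overlapped a SOX7 peak, against 20.9% of all FLI1 peaks. FLI1 histone peaks met ERG in 4 of 17 cases (23.5%, 6.81 to 49.9), against 4.63% of all FLI1 peaks, and ERG histone peaks met FLI1 in 4 of 6 (66.7%, 22.3 to 95.7), against 49.3% of all ERG peaks. SOX7 histone peaks met ERG in 0 of 20 cases, which allows up to 16.8%, against 5.13% of all SOX7 peaks. ERG histone peaks met SOX7 in 0 of 6, which allows up to 45.9%, against 32.4% of all ERG peaks. Neighbouring peaks of a cluster share their surroundings and are not independent, and these differences were not tested. The 29 regions comprised 9 of SOX7 and FLI1, 3 of FLI1 and ERG, 1 of all 3 factors, 10 of SOX7 alone, 4 of FLI1 alone and 2 of ERG alone.

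**Figure D4:**
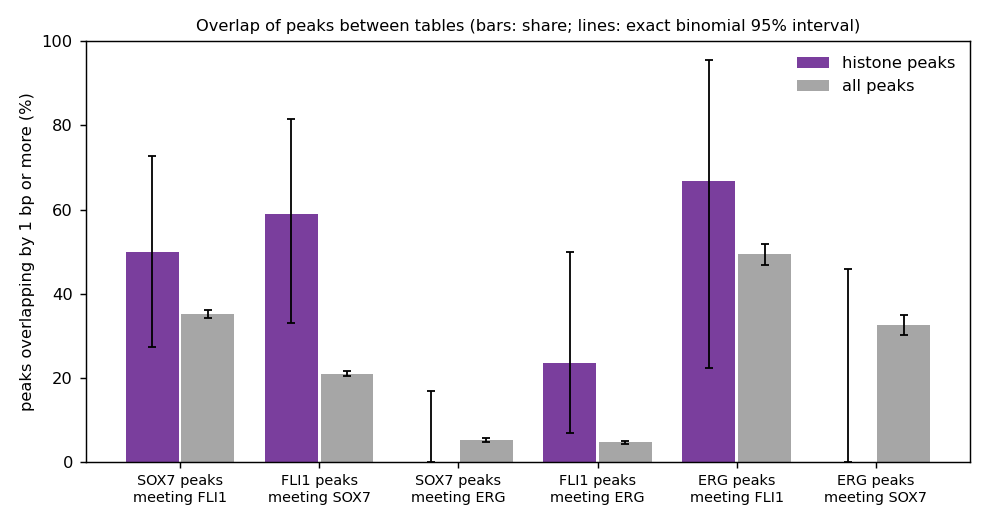
Share in percent of peaks that overlap a peak of another factor by at least 1 bp, for peaks assigned to histone genes (purple) and for all peaks of the table (grey), with exact binomial 95% intervals as lines. For FLI1 peaks meeting SOX7 the shares are 58.8% and 20.9%, and for SOX7 peaks meeting ERG they are 0% and 5.13%.

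Peaks that met did not always carry the same gene name. Of the 10 SOX7 peaks that met FLI1, 8 carried the same histone gene in both tables and 2 carried different histone genes. At chr13:23622742-23625653 the SOX7 peak is assigned to the H2A gene Hist1h2af, with 144 reads at percentile 87.9, and the FLI1 peak to the neighbouring H4 gene Hist1h4h and to Gm11335, with 341 reads at percentile 86.0. These peaks share 1590 bp. The other case is the second block of Hist1, where a SOX7 peak of 63 reads at Hist1h4i (percentile 68.8) shares 962 bp with the FLI1 peak of Hist1h2ag and Hist1h2bj. The ERG peak of Hist1h2bj shares 924 bp with that FLI1 peak at its other end. This is the single region of all 3 factors, and no base of it lies under both SOX7 and ERG. Conversely, Hist2h2be was in both the SOX7 and the FLI1 table with peaks 4491 bp apart, while the peaks of the other 8 genes common to SOX7 and FLI1 met.

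Where the same gene was listed, the extent of the overlap varied. The FLI1 peak covered all of the SOX7 peak at Hist1h2ak, Hist1h4a and Hist1h4j, and the SOX7 peak covered all of the FLI1 peak at Hist1h2ad and Hist1h3d. At Hist1h3c, in the region chr13:23835742-23838753, the peaks share 890 bp, 34.2% of the SOX7 peak and 68.4% of the FLI1 peak. At Hist1h2br they share 390 bp, 16.9% of the SOX7 and 21.1% of the FLI1 peak. Hist1h2be had 4 SOX7 and 2 FLI1 peaks, and both FLI1 peaks met a SOX7 peak. The FLI1 peak covered all of the ERG peak at Hist3h2a and Hist4h4, 97.2% of it at Hist1h2bj and 79.6% at Hist2h2bb. The Hist2h2bb region at chr3:96073004-96074248 and the Hist4h4 region at chr6:136751930-136754480 had, with those of Hist1h3c, Hist1h2bj and Hist1h2af, the highest mean percentiles of regions with more than 1 factor, between 86.9 and 92.8 among all genes.

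Dam marks only GATC, so the promoters of these genes are shown with GATC in capitals, together with the octamer ATGCAAAT (ATTTGCAT on the other strand), the site of OCT1 in H2B promoters. The sequences are RefSeq promoters of GRCm38.p6, 250 bases before to 50 after the gene start, in the direction of transcription, for the histone genes of the 3-factor region and of the FLI1 and ERG regions of chromosomes 3 and 6, and for the densest SOX7 member. Their positions are not those of the mm9 peaks, and whether a peak covers them was not analysed here. They are Hist1h4i (chr13:22041313-22041612, minus strand), Hist1h2ag (chr13:22042900-22043199, minus strand), Hist1h2bj (chr13:22042948-22043247, plus strand), Hist2h2bb (chr3:96269450-96269749, plus strand), Hist2h3b (chr3:96268404-96268703, plus strand), Hist4h4 (chr6:136804382-136804681, minus strand) and Hist1h2bh (chr13:23543395-23543694, minus strand).
Hist1h4i: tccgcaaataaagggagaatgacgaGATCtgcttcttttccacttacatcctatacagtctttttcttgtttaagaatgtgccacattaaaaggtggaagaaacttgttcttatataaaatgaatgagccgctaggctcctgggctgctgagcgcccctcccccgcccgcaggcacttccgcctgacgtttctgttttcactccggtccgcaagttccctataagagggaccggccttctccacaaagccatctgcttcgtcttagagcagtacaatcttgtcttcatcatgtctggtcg
Hist1h2ag: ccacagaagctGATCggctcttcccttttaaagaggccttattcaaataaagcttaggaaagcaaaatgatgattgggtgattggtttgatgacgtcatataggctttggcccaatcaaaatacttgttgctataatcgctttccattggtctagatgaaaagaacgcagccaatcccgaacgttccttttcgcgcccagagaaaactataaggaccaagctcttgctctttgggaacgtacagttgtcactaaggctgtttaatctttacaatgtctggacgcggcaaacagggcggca
Hist1h2bj: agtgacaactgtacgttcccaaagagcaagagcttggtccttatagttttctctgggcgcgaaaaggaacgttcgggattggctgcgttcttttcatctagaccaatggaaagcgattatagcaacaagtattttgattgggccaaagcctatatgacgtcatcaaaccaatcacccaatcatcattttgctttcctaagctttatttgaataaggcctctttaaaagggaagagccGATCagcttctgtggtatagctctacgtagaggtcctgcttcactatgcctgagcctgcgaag
Hist2h2bb: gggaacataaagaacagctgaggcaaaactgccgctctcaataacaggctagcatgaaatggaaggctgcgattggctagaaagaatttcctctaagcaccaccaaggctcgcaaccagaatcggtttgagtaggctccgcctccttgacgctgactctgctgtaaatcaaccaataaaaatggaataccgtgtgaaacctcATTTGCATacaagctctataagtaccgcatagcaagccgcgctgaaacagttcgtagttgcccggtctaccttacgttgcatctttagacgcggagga
Hist2h3b: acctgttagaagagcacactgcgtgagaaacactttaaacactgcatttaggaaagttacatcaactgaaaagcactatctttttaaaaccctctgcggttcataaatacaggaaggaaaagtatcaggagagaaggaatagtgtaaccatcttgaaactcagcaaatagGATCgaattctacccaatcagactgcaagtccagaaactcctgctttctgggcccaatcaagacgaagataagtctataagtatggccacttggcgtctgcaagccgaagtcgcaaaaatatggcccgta
Hist4h4: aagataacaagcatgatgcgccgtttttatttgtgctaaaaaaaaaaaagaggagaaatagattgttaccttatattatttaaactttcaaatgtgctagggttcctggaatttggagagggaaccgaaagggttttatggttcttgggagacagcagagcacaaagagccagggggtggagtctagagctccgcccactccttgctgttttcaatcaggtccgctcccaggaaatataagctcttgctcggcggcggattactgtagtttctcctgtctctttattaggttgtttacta
Hist1h2bh: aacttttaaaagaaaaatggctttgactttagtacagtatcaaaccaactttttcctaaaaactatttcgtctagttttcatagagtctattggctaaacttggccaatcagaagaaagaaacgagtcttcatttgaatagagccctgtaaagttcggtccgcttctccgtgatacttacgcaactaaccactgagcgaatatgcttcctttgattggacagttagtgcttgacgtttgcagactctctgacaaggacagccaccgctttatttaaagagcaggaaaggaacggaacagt
Hist1h4i holds 1 GATC, whose first base is at position -225 from the start, Hist1h2ag holds 1 at -239, Hist1h2bj holds 1 at -13 and Hist2h3b holds 1 at -80. The windows of the divergent Hist1h2ag and Hist1h2bj overlap, and their GATC is the same site. Hist2h2bb, Hist4h4 and Hist1h2bh hold 0 in these windows, and Hist2h2bb holds the octamer at -48.

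Of the 67 histone genes 62 had promoters in the RefSeq table, 63 windows in all. GATC was in 47.1% of the 34 windows of listed genes, against 17.2% of the 29 windows of genes in no table, and in 48.0% of all 32851 promoters; this difference was not tested. By factor, GATC was in 42.1% of the 19 windows of SOX7 genes, 54.5% of the 22 of FLI1 genes and 50.0% of the 6 of ERG genes. The 34 windows belong to 33 genes, since Hist1h2be has 2 windows, both with GATC and both counted for SOX7 and for FLI1. Hist1h2ag and Hist1h2bj share 1 GATC site, so windows are not separate sites. The ETS core GGAA, searched on both strands like each motif here, was in 92.1% of histone windows and 96.0% of all. It was in 91.2% of windows of listed genes and 93.1% of those of genes in no table. The SOX core ACAAT was in 41.3% of histone windows and 31.0% of all, and in 41.2% of windows of listed genes and 41.4% of the others. CCAAT was in 85.7% of histone windows and 37.4% of all, TATAAA in 55.6% of histone windows and 13.6% of all, and the octamer in 22.2% of histone windows and 1.74% of all. These last 3 are known elements of histone promoters. The octamer was in 7 of 17 H2B and 7 of 18 H2A windows and in 0 of the 28 windows of H1, H3 and H4 genes. Windows of divergent H2A and H2B neighbours can overlap, so an octamer may be counted for both genes, and separate sites were not counted. No motif searched contains another, and a match is a description of the letters only.

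Histone genes outside the clusters, which are expressed through the cell cycle or in special cells, were listed by SOX7 in 4 of 15 cases (26.7%, 7.79 to 55.1), against 23% of all RefSeq protein-coding genes, and by FLI1 in 2 (13.3%, 1.66 to 40.5), against 35.3% of all. ERG listed 0 of 15, which allows up to 21.8%, against 5.75% of all. All 3 of these intervals hold the share of all genes. The 15 are those of 17 named genes that RefSeq matched; of the other two, H2afb1 was listed by SOX7 at percentile 23.8 and H2afy3 was in no table. The SOX7 genes were H3f3b, which encodes the variant H3.3, at percentile 93.3 with 145 reads, H2afz, which encodes H2A.Z, at 84.8 with 92 reads, H2afv at 64.8 and the oocyte linker gene H1foo at 11.6. The FLI1 genes were the macroH2A gene H2afy2 at percentile 89.1 with 141 reads and Cenpa, the centromere H3, at 13.3 with 105 reads. No gene of this list was in more than 1 table.

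Genes that act on histone transcription, histone mRNA or histone deposition were listed by FLI1 in 17 of 33 cases (51.5%, 33.5 to 69.2), against 35.3% of all RefSeq protein-coding genes, and by SOX7 in 9 (27.3%, 13.3 to 45.5), against 23% of all. ERG listed 0 of 33, which allows up to 10.6%, against 5.75% of all. Each of these intervals holds the share of all genes, so the counts do not set the list apart. The median percentile of those listed was 39.6 for FLI1 and 21.0 for SOX7. Npat, which encodes the transcription regulator named above, had 78 FLI1 reads at percentile 39.6. Slbp had 109 FLI1 reads at percentile 80.3, and Lsm11, a component of the U7 particle that processes histone mRNA, had 193 at 80.6. Upf1, which acts in histone mRNA decay, stood highest in FLI1 at percentile 84.8 with 114 reads. Lower in FLI1 were the mRNA genes Eri1 at percentile 20.3 and Zfp473 at 16.4. Of the chaperone and deposition genes, FLI1 listed Chaf1b at percentile 77.7, Asf1b at 63.8, Rbbp7 at 37.4, Hira at 25.8, Hat1 at 11.8 and Atrx at 0.215. The lowest SOX7 genes of the list were Cpsf3 at percentile 1.88, Rbbp7 at 8.49 and Atrx at 9.67. Hinfp, which encodes an activator of H4 genes, had 49 SOX7 reads at percentile 26.6. Pou2f1, which encodes the octamer factor OCT1, was listed by SOX7 with 207 reads in 2 peaks (percentile 72.8) and by FLI1 with 345 reads in 3 peaks (percentile 33.3).

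Hox genes, which are also clustered, and ribosomal protein genes give a scale for these values. Histone genes were listed in 29.9% of cases by SOX7, 32.8% by FLI1 and 8.96% by ERG, Hox genes in 23.1%, 33.3% and 5.13% of 39 and ribosomal protein genes in 34.5%, 48.8% and 3.57% of 84, against 23%, 35.3% and 5.75% of all RefSeq protein-coding genes for SOX7, FLI1 and ERG. The median percentiles of listed histone genes were 69.7, 77.4 and 87.5 for SOX7, FLI1 and ERG. Those of Hox genes were 84.9, 80.1 and 59.2, and those of ribosomal protein genes 53.1, 61.5 and 62.5. The ERG medians rest on only 6 histone, 2 Hox and 3 ribosomal protein genes. FLI1 peaks met a SOX7 peak in 58.8% of cases at histone genes, 40.0% at Hox genes and 28.3% at ribosomal protein genes, and the intervals of these 3 shares overlap. The order was not the same for SOX7 peaks. A FLI1 peak was met by 10 of 20 SOX7 peaks at histone genes, 6 of 8 at Hox genes and 16 of 31 at ribosomal protein genes. Here the histone share was the lowest, and the intervals overlap as well. These differences were not tested.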

How the data were processed

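The deposited counts are whole reads summed over the peaks of a gene, and the density is a signal in reads per kb, per the file headers. Count times 1000 over peak length returned the deposited signal within 0.01 in all 6530 SOX7, 10246 FLI1 and 1579 ERG genes. Peaks were called relative to a Dam-only library, per the labels, and the submitters' processing notes give mm9 as the build of the positions. Aligner, peak caller, treatment of reads with several matches, gene assignment and library depth are not given in the labels or files. Listed peaks held 974550 SOX7, 2665309 FLI1 and 135623 ERG reads. The biotype antisense occurs in the FLI1 and ERG tables and not in that of SOX7, so the annotation may differ between them.

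Percentiles are mid-ranks among the protein-coding genes of a table. Printed intervals are 95% exact Poisson or Clopper-Pearson and cover counting error only, since amplified reads carry no molecular identifiers. Recomputed median percentiles were judged by a 95% interval taken from the ranked percentiles of the members, which is a spread among genes. Genes were matched between tables by Ensembl identifier, and to RefSeq (GRCm38.p6, for names, gene order and promoters) by current or older symbol, which recognised 96.5%, 95.6% and 95.7% of SOX7, FLI1 and ERG protein-coding symbols. Overlap and ranking were tested on simulated data (Python 3.11.15, pandas 2.3.3, scipy 1.17.1). Members and lists were chosen with earlier results of these data known. Genes named are the 5 densest and 3 least dense members of each table, those in its top 1% and those of the 5 best regions of more than 1 factor by mean percentile; others were chosen after their values were seen. Alternatives changed the biotype, part of the table, ranking column, genes ranked, overlap rule and matching.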

Additional observations from a re-analysis of the deposited data

Results flagged for a closer look

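The pseudogene Hist3h2bb-ps carries histone reads outside the protein-coding genes described above. It is listed with 142 reads in the FLI1 table and with 50 reads in the ERG table, both above the limit of 3 reads set for this flag. Listed entries have called peaks, so passing this limit says little. Both entries have the same peak as Hist3h2a and Trim17, so these are the same reads, and the tables do not say to which of these genes they belong.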

How the results depend on the processing

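No paired analysis was possible because each group has 1 library, and no library could be left out for the same reason. Of 36 recomputed values 35 stayed within 1.5 times the count, or within the interval of the value. The exception was the FLI1 median percentile of histone genes, 77.4 by reads per kb and 51.0 by summed read count; the cause was not tested. By summed reads the medians were 61.0 for SOX7 and 84.9 for ERG. The limits used for the 36 values were loose, so staying within them shows little. For ERG the interval of the median percentile spanned all 6 members. Matching by symbol returned the same counts as matching by identifier, and the overlap shares have wide intervals. In the denser 50% of protein-coding genes 15 SOX7, 17 FLI1 and 6 ERG members were left. With an overlap of at least 50% of the shorter peak 9 SOX7 and 9 FLI1 histone peaks met each other, and allowing 1000 bp between peaks brought 1 SOX7 peak and 1 ERG peak together. Counts of 6 ERG genes and peaks limit what any share can show. A gene missing from a table had no peak assigned to it and may still have had reads.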
